A study of Mus musculus with 6 samples.

Results

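The 7 genes described here are H2-Aa, H2-Ab1, H2-Eb1, Cd74, H2-DMa, H2-DMb1 and Ciita, which serve antigen presentation on major histocompatibility complex (MHC) class II molecules. They were chosen by name from the 53801 genes of the deposited count table, in which each has a row. All 7 had enough counts to be tested, as did 15133 genes in all. The table holds RNA-seq counts of PDPN+PDGFRα+ stromal cells sorted from MO5 tumors, with 3 libraries in each of the Ctrl and DTR groups. MO5 is a B16 melanoma line that carries the ovalbumin gene, implanted under the skin of C57Bl/6 mice aged 8 to 12 weeks. DTR mice carry ADAM12-DTR, a transgene that places the diphtheria toxin receptor under the control of Adam12, so that the toxin kills cells expressing it. Ctrl mice were littermates without the transgene (DTR-), and the labels give diphtheria toxin as the treatment of both groups. The toxin was injected intraperitoneally at 100 ng per day, and the day on which these tumors were harvested is not given in the sources used here. The sort had gated out dead, CD45+ and CD31+ cells, the gates that hold leukocytes and endothelial cells. The transgene acts in cells that use the Adam12 promoter, which are only a part of the sorted cells. Nothing in the labels says that the 3 libraries of a group came from separate mice. The paper's methods count n in mice unless stated otherwise, but its legend gives no n for these libraries. The p-values therefore measure the spread between libraries, which may be technical.

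MHC class II molecules show peptides from engulfed or endosomal proteins to CD4+ T cells. They are made constitutively by dendritic cells, B cells and macrophages, and many other cells, fibroblasts among them, make them after exposure to IFN-γ. An α and a β chain pair in the endoplasmic reticulum, where the invariant chain blocks the groove and directs the complex to endosomes. Proteases there trim the invariant chain to a short peptide, which H2-DM exchanges for an antigenic peptide. Transcription of all these genes depends on CIITA, a coactivator that does not bind DNA itself and is recruited by the RFX, CREB and NF-Y factors sitting on the X and Y boxes of class II promoters.

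H2-Aa encodes the α chain of the I-A molecule, H2-Ab1 its β chain and H2-Eb1 the β chain of I-E. Cd74 encodes the invariant chain, and H2-DMa and H2-DMb1 encode the α chain and one of the β chains of H2-DM. On the GRCm38 build, 5 of the 7 genes lie together in the MHC on chromosome 17. H2-DMa (ENSMUSG00000037649) spans 34119541 to 34139101 and H2-DMb1 (ENSMUSG00000079547) spans 34153072 to 34160230, both on the plus strand. H2-Ab1 (ENSMUSG00000073421) spans 34257689 to 34269419 and H2-Eb1 (ENSMUSG00000060586) spans 34305867 to 34316674, on the same strand. H2-Aa (ENSMUSG00000036594), from 34282744 to 34287823, lies between them on the minus strand. Ciita (ENSMUSG00000022504) lies on chromosome 16 from 10480059 to 10528418.

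Promoter sequence is shown because class II genes are transcribed through the X and Y boxes. It is given for the genes whose window with both boxes lay wholly before the first base annotated in RefSeq and in GENCODE M21. Sequences are from RefSeq on GRCm38.p6, written 5′ to 3′ on the strand of the gene, and the capitals mark first the X half-site CNNGNAAC and then the Y box GATTGG. H2-Aa and H2-Eb1 are members, and H2-Ob and H2-Eb2 are relatives in the same cluster, shown because they hold both motifs. The windows are chr17:34287857-34287917 (minus strand) for H2-Aa, chr17:34305763-34305822 (plus strand) for H2-Eb1, chr17:34238805-34238862 (plus strand) for H2-Ob and chr17:34325530-34325589 (plus strand) for H2-Eb2.
H2-Aa: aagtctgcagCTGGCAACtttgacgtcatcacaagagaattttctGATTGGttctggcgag
H2-Eb1: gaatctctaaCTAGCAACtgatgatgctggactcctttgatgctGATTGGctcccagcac
H2-Ob: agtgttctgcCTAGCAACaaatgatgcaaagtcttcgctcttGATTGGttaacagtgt
H2-Eb2: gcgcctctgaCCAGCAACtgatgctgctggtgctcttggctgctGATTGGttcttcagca

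From the start of the X half-site to the start of the Y box there were 35 bases in H2-Aa, 34 in H2-Eb1, 32 in H2-Ob and 34 in H2-Eb2. Both motifs were searched on both strands of RefSeq promoters of 300 bases, from 250 before to 50 after the start, and they do not overlap each other in a pair. The letters of the half-site were chosen after these promoters had been seen. Of 32851 such promoters, 39.1% held the half-site, 16.1% the Y box and 0.265% both on one strand with 20 to 40 bases from one start to the other. H2-DMb1 and the relative H2-Oa also held such a pair, at 35 bases each. They are not shown because their windows did not lie wholly before the first base in both annotations. Neither of the 2 windows of H2-DMa held one, nor did that of H2-DMb2, which says only that these letters are not so placed there. H2-Ab1, Cd74 and Ciita have no entry in the promoter table used here.

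Before the comparison of the groups, the libraries themselves have to be described. Between 22339635 and 34271929 reads were counted per library, so that 3 counts correspond to 0.0875 to 0.134 CPM, that is counts scaled to a common library size with edgeR's TMM factors, a floor that covers counting error only. Adam12 was lower in each DTR library than in all Ctrl libraries, with 190 ± 22.1 CPM (SD, n = 3) in Ctrl and 142 ± 27.6 in DTR (adjusted p = 0.602, edgeR with Benjamini-Hochberg correction). The sorting markers Pdgfra and Pdpn were present in all 6 libraries, at 42.6 to 132 CPM and 46.0 to 99.0 CPM. Melanocyte-lineage genes were far more abundant than the sorting markers, and Dct, an enzyme of pigment synthesis, was at 5744 to 7573 CPM. The leukocyte gene Ptprc, which encodes CD45, was at 16.3 to 49.6 CPM despite the gate. In bulk libraries such as these, fewer cells of a type and less RNA per cell cannot be told apart.

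One library, Ctrl 1, stood apart for the class II genes. It was the lowest of the 6 libraries for 7 of 7 members, whereas 17.7% of all tested genes were lowest there. For H2-Aa, H2-Eb1 and Ciita it lay more than 2-fold below the next lowest library, a distance reached by 0.271% of all tested genes. Relative to the median of the other libraries, the median member was lower in Ctrl 1 by a log2 difference of -1.38, and the median tested gene differed by 0.01. At the other end, DTR 3 held the highest value of all 7 members. Its median member was 0.64 (log2) above the median of the other libraries, and its median tested gene differed by -0.02. DTR 3 also stood apart for other genes. It was highest by at least 2-fold for 228 tested genes, 0 of them members, against 5 to 29 genes in each other library. Of all tested genes, 23.2% were lowest in DTR 3. The comparison of the members is therefore also given without Ctrl 1 and without DTR 3.

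Expression of the class II genes did not differ between DTR and Ctrl beyond the spread between libraries. All 7 had a log2 fold change above 0 in DTR, from 0.04 for Cd74 to 0.46 for H2-DMa, with a median of 0.23 against 0.00 over all tested genes, of which 7507 of 15133 were above 0. By the quasi-likelihood test of edgeR, none of the 7 passed an adjusted p of 0.05 (0 of 15133 genes did, 0%). Nor did any member reach an unadjusted p under 0.05, in edgeR or DESeq2. Of all tested genes, 7.92% did so in edgeR, 3.81% higher and 4.11% lower in DTR, and 4.89% in DESeq2. The groups overlapped for all 7 members, against 14.5% of all tested genes whose libraries did not overlap, 6.3% with DTR higher and 8.19% with DTR lower. DESeq2's Wald test gave 20360 genes an adjusted p, and 31 of them were under 0.05, of which 0 were members.

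For the α chain of I-A, H2-Aa was at 20.1, 80.0 and 68.0 CPM in the Ctrl libraries 1 to 3 and at 45.6, 59.3 and 93.0 CPM in the DTR libraries 1 to 3. These levels rest on 492 to 2110 counts per library. Ctrl 1 was the lowest by far, and each of the other Ctrl libraries lay above both DTR 1 and DTR 2, so the groups overlapped. The means were 56.0 ± 31.7 CPM (SD, n = 3) in Ctrl and 65.9 ± 24.4 in DTR. This gave a log2 fold change of 0.23 (95% confidence interval -0.84 to 1.31, adjusted p = 0.909 in edgeR; two-sided exact permutation test p = 0.7). Comparing 3 libraries with 3, the exact test cannot go below p = 0.1.

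H2-Ab1, the β chain that pairs with H2-Aa, was at 21.3, 75.9 and 52.4 CPM in Ctrl and 38.6, 44.5 and 76.6 CPM in DTR. Ctrl 2 and DTR 3 were nearly level at the top, and the order of the libraries was otherwise that of H2-Aa. Mean values were 49.8 ± 27.4 CPM in Ctrl and 53.2 ± 20.5 in DTR (SD, n = 3), a log2 fold change of 0.09 (95% interval -0.91 to 1.09, edgeR adjusted p = 0.960, exact permutation p = 0.8). H2-Eb1, the β chain of I-E, was at 17.9, 57.4 and 45.5 CPM in Ctrl and 36.6, 41.8 and 64.1 CPM in DTR. The same libraries were at the bottom and at the top. With means of 40.3 ± 20.3 and 47.5 ± 14.6 CPM (SD, n = 3), the log2 fold change of H2-Eb1 was 0.24 (95% interval -0.67 to 1.14, edgeR adjusted p = 0.887, exact permutation p = 0.7). C57Bl/6 mice lack a functional gene for the α chain of I-E, and the row H2-Ea-ps, the pseudogene that stands for it, was at 0 counts in all 6 libraries.

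Cd74 (ENSMUSG00000024610), on chromosome 18 from 60803848 to 60812652, was the most abundant member, at 88.8, 396 and 340 CPM in Ctrl and 164, 272 and 411 CPM in DTR. Its lowest and highest libraries were again Ctrl 1 and DTR 3, and Ctrl 2 was close to the latter. The group means hardly differed, with 275 ± 164 CPM in Ctrl and 282 ± 124 in DTR (SD, n = 3). A log2 fold change of 0.04 had a 95% interval from -1.16 to 1.24 (edgeR adjusted p = 0.987, exact permutation p = 0.8), the widest among the 7 genes. A log2 difference of 1 in either direction lay within these bounds.

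The H2-DM genes, whose product loads peptides, were the less abundant part of the machinery. H2-DMa was at 4.73, 13.6 and 13.1 CPM in Ctrl and 9.30, 10.3 and 24.0 CPM in DTR. DTR 3 alone was well above every Ctrl library, and the other DTR libraries lay below Ctrl 2 and Ctrl 3. Its means were 10.5 ± 5.0 and 14.5 ± 8.23 CPM (SD, n = 3), with a log2 fold change of 0.46 (95% interval -0.64 to 1.56, edgeR adjusted p = 0.806, exact permutation p = 0.6). H2-DMb1 was at 7.92, 18.4 and 20.4 CPM in Ctrl and 14.3, 15.2 and 21.9 CPM in DTR. It varied least of the 7 genes, its highest library being close to Ctrl 3. The log2 fold change of H2-DMb1 was 0.13 (95% interval -0.65 to 0.91, edgeR adjusted p = 0.933, exact permutation p = 0.8) from 15.6 ± 6.71 CPM in Ctrl and 17.1 ± 4.13 in DTR (SD, n = 3). H2-DMb1 shares 22.7% of its 50-base transcript words with its neighbour H2-DMb2, so the division of reads between these paralogs is uncertain.

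Ciita, the coactivator on which the others depend, was at 7.55, 30.3 and 24.6 CPM in Ctrl and 19.3, 21.2 and 44.0 CPM in DTR. It followed the pattern of its target genes, with Ctrl 1 lowest, DTR 1 and DTR 2 in between and DTR 3 highest. Its mean was 20.8 ± 11.9 CPM in Ctrl and 28.2 ± 13.7 in DTR (SD, n = 3). For Ciita the log2 fold change was 0.43 (95% interval -0.71 to 1.58, edgeR adjusted p = 0.831, exact permutation p = 0.6).

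**Figure D1:**
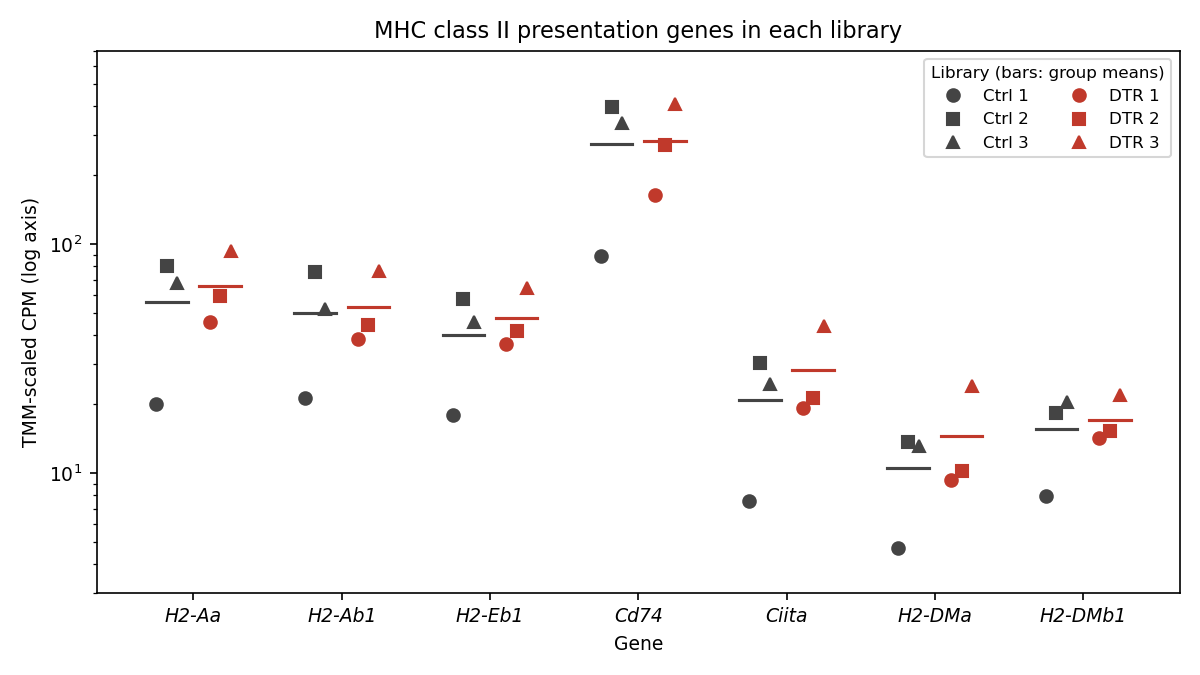
Level of each class II gene in each library, in TMM-scaled CPM on a log axis; grey symbols are Ctrl, red symbols DTR, symbol shape gives the library number and horizontal bars the group means. Ctrl 1 is the lowest point and DTR 3 the highest point for all 7 genes, and the groups overlap for each, as for H2-Aa with 20.1 to 80.0 CPM in Ctrl and 45.6 to 93.0 CPM in DTR.

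The small excess of DTR rested on single libraries. Without Ctrl 1 the log2 fold change was below 0 for 5 of 7 members, with -0.17 for H2-Aa, -0.27 for H2-Ab1, -0.12 for H2-Eb1, -0.38 for Cd74 and -0.18 for H2-DMb1. Ciita and H2-DMa then stood at 0.03 and 0.11, and the median of the 7 was -0.17. Without DTR 3 all 7 were below 0, from -0.34 for Cd74 to -0.04 for H2-Eb1 and -0.039 for Ciita. In neither of these fits did a member reach an adjusted p under 0.05. The direction of the class II genes between DTR and Ctrl therefore changed with the library left out, and no direction is given for them here.

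**Figure D2:**
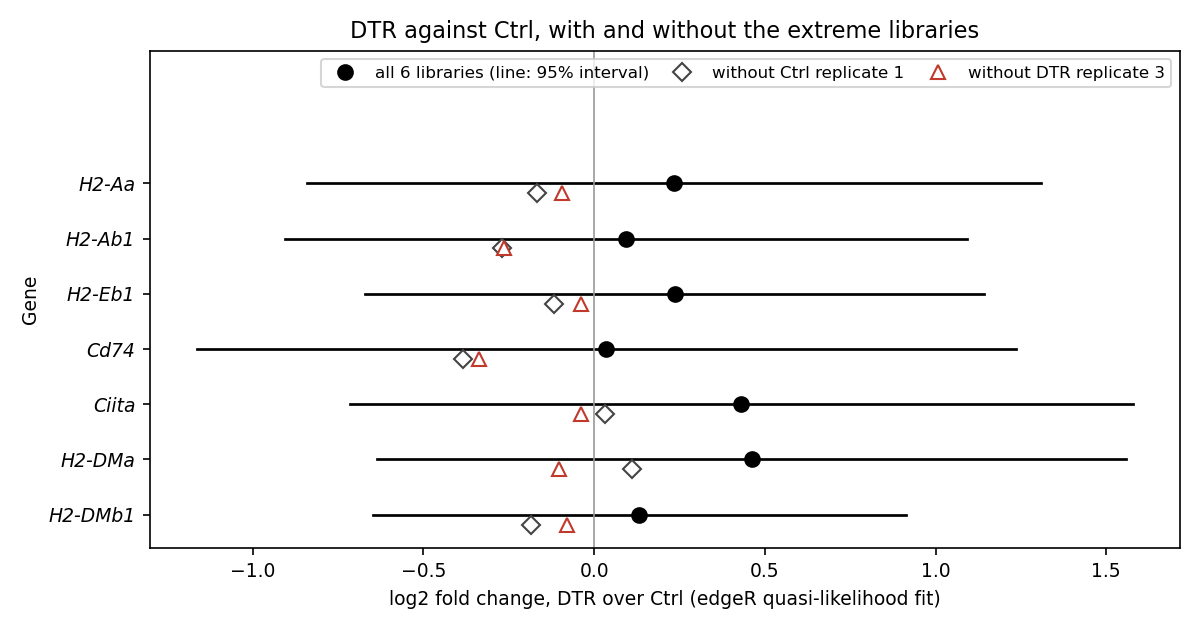
Log2 fold change of each class II gene, DTR over Ctrl, from edgeR's quasi-likelihood fit; filled circles with lines are all 6 libraries with the 95% confidence interval, diamonds the fit without Ctrl replicate 1 and triangles the fit without DTR replicate 3. Every interval crosses 0, and 5 of the diamonds and all 7 triangles lie below 0, as for Cd74 with 0.04, -0.38 and -0.34.

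Between libraries, by contrast, the 7 genes varied together. Over the 6 libraries, log2 CPM of the 21 pairs of members correlated with a Pearson r between 0.918 and 0.995, with a median of 0.967. The points share library, depth and scaling, and the correlations are a description without a test. The sum over the 7 genes was 168, 672 and 564 CPM in Ctrl and 327, 464 and 734 CPM in DTR. Ctrl 2 and Ctrl 3 thus lay above DTR 1 and DTR 2, and Ctrl 1 lay below all others. Leaving out Ctrl 1, the fold from the lowest to the highest of the other libraries was 1.53 for H2-DMb1, the smallest, and 2.58 for H2-DMa, the largest. The median of the other 5 libraries was 2.32-fold (H2-DMb1) to 3.83-fold (Cd74) the level in Ctrl 1.

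Ratios between members within a library do not depend on scaling, and 4 were compared. For H2-Aa to H2-Ab1 the ratio of counts was 0.944, 1.05 and 1.3 in Ctrl and 1.18, 1.33 and 1.21 in DTR. The DTR ratios lay within a narrow range that Ctrl 3 shared, with a log2 difference of 0.19 (two-sided exact permutation p = 0.3, 0.6 after Benjamini-Hochberg correction over the 4 ratios). For H2-Eb1 to H2-Ab1 the ratio was 0.841, 0.756 and 0.869 in Ctrl and 0.948, 0.939 and 0.836 in DTR, a log2 difference of 0.14 (exact permutation p = 0.3, corrected 0.6). Both overlapped between the groups. Over each library left out, the log2 difference ran from 0.09 to 0.31 for H2-Aa to H2-Ab1, the lowest without Ctrl 1 and the highest without Ctrl 3, and from 0.08 without Ctrl 2 to 0.20 without DTR 3 for H2-Eb1 to H2-Ab1. Cd74 to H2-Ab1 was at 4.18, 5.22 and 6.49 in Ctrl and 4.24, 6.11 and 5.36 in DTR, a log2 difference of -0.01 (exact permutation p = 1, corrected 1). This ratio was lowest in the libraries numbered 1 of both groups. H2-DMa to H2-DMb1 was at 0.598, 0.743 and 0.643 in Ctrl and 0.652, 0.674 and 1.1 in DTR (log2 difference 0.25, exact permutation p = 0.5, corrected 0.667). DTR 3 was the only library with as much H2-DMa as H2-DMb1, and the other DTR ratios lay within the range of Ctrl. Without DTR 3 the log2 difference was 0.0096.

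To compare levels between genes, CPM were divided by the length in kilobases of the longest protein-coding transcript. On this scale Cd74 came first, at 198 ± 92.2 CPM per kb (SD over the 6 libraries), and was 3.66-fold above the next gene. H2-Aa followed at 54.1 ± 22.9, H2-Ab1 at 42.5 ± 17.9 and H2-Eb1 at 26.3 ± 9.76. H2-DMb1 (11.6 ± 3.60), H2-DMa (6.24 ± 3.23) and Ciita (4.08 ± 2.02) were lowest. Each gene was above the next in 6 of 6 libraries. The means ± SD of neighbours overlapped except between Cd74 and H2-Aa and between H2-Eb1 and H2-DMb1. When all annotated exons were used as the length instead, a choice made after seeing the data, H2-Aa was above H2-Ab1 in 0 of 6 libraries and H2-Ab1 above H2-Eb1 in 1 of 6. The order among the 3 chain genes is therefore not settled, while the places of Cd74, H2-DMb1, H2-DMa and Ciita held in 6 of 6 libraries with either length. The fold between Cd74 and the next gene also depended on the length. With all exons, Cd74 was at 166 CPM per kb and the next gene, H2-Eb1, at 22.6.

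Other genes of the class II pathway were taken from 6 lists holding 41 genes, of which 38 were tested. Of these, 21 were higher and 17 lower in DTR, 0 passed an adjusted p of 0.05, and 0 were under 0.05 without adjustment in edgeR (1 in DESeq2, and 7.92% of all tested genes in edgeR). Their median log2 fold change was 0.05. Each DTR library lay below all Ctrl libraries for Nfya and Ifngr2, 2 of 38 against 8.19% of all tested genes. Among the partners and paralogs, 3 of 6 were tested, from H2-DMb2 at -0.43 (standard error 0.414) to H2-Ob at 0.20 (standard error 0.736), which encodes a chain of H2-DO, an inhibitor of H2-DM. Without Ctrl 1 H2-Ob stood at -0.17 and H2-DMb2 at -0.58, and over each library left out H2-Ob ran from -0.17 to 1.27, so that no direction can be given for it. All of these were scarce, and the highest value of H2-DMb2 was 1.65 CPM and that of H2-Ob 0.837 CPM. H2-Eb2 had 0 counts in Ctrl 1 and at most 48 counts in any other library. H2-Oa, which encodes the partner chain of H2-Ob, had at most 7 counts and was not tested.

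Peptide-processing genes were abundant, with a sum of 932 to 1145 CPM over 8 genes, of which the protease gene Ctsb gave 454 to 572 CPM. Single genes varied more than the sum, and Ctsl, another cathepsin, ran from 84.5 CPM in Ctrl 2 to 164 CPM in DTR 3. Their log2 fold changes ran from Ifi30 at -0.20 (standard error 0.118), a thiol reductase of endosomes, to Sppl2a at 0.34 (standard error 0.169, adjusted p = 0.646 in edgeR), a protease that cleaves the remnant of the invariant chain. Sppl2a was at 56.9, 59.4 and 71.6 CPM in Ctrl and 61.6, 80.7 and 96.1 CPM in DTR. DTR 1 lay below Ctrl 3, and the groups overlapped. Over each library left out, Sppl2a ran from 0.18 without DTR 3 to 0.51 without DTR 1. Ifi30 ran from -0.28 without Ctrl 2 to -0.10 without Ctrl 3. Ctss, the cathepsin that makes the final cuts in the invariant chain of dendritic and B cells, was at 43.4 CPM in Ctrl 1 and at 43.7 to 70.4 CPM in the others.

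Of the 9 genes listed for the transcription of class II, the factors that bring CIITA to the promoters and the coactivators Crebbp and Ep300, 3 were lowest in Ctrl 1. These were Rfx5, Rfxank and Nfyc. Rfx5, which binds the X box, was at 11.9, 18.2 and 14.9 CPM in Ctrl and 12.2, 17.3 and 17.9 CPM in DTR. The sum of the list ran from 544 to 595 CPM with 552 in Ctrl 1, but most of it came from Crebbp (175 to 201 CPM) and Ep300 (161 to 183 CPM). Log2 fold changes ran from -0.25 for Rfxap (standard error 0.161), a subunit of RFX, to 0.21 for Nfyc (standard error 0.124), a subunit of NF-Y. Ciita itself spanned 7.55 to 44.0 CPM over the same libraries.

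In the IFN-γ signalling list the extremes were Ifngr2 and Socs1. Ifngr2, a chain of the IFN-γ receptor, was at 66.3, 66.2 and 69.0 CPM in Ctrl and 57.4, 60.4 and 62.6 CPM in DTR. It was lower in every DTR library, and its log2 fold change was -0.16 (SE 0.0848, edgeR adjusted p = 0.653). Socs1, a feedback inhibitor of the pathway, was at 2.73, 3.31 and 4.67 CPM in Ctrl and 4.62, 3.96 and 12.1 CPM in DTR. Its log2 fold change of 0.94 (standard error 0.457, edgeR adjusted p = 0.642) had DTR 3 far above the other libraries, and it was 0.26 without that library. Irf1, a transcription factor that acts on the Ciita promoter, was at 68.3, 123 and 123 CPM in Ctrl and 113, 101 and 212 CPM in DTR. It was lowest in Ctrl 1 and highest in DTR 3, as the members were. Ifng transcripts themselves were scarce, at 0.494 to 1.19 CPM in the 6 libraries. Of the exon bases of Ifng, 25.9% are also annotated to another gene on the same strand. Irf1, Ctss, Ctsb, Ctsl, Rfx5, Rfxank, Crebbp, Ep300 and Ifng were singled out after their values had been seen.

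Of the genes that govern surface class II, March1, a ubiquitin ligase that removes it, stood at -0.26 (log2, standard error 0.592), and Cd83, which opposes that ligase, at 0.22 (standard error 0.352). March1 was at 0.857 CPM in Ctrl 1 and at 1.32 to 4.18 CPM in the other libraries. Cd86, a costimulatory ligand of T cells, had the highest log2 fold change of its list, 0.53 (standard error 0.390), and Icosl the lowest, -0.09 (standard error 0.193). Cd86 was at 3.14, 8.70 and 5.86 CPM in Ctrl and 8.16, 11.5 and 5.86 CPM in DTR. March1, Cd83 and Cd86 moved with single libraries, March1 to -0.69 without Ctrl 1 and to 0.02 without DTR 3. Cd83 moved to -0.13 without DTR 3, and Cd86 to 0.23 without Ctrl 1. Icosl stayed below 0, from -0.18 without Ctrl 2 to -0.01 without Ctrl 1. Cd86 was lowest in Ctrl 1 and highest in DTR 2. The sum of the 5 costimulation genes was lowest in Ctrl 1 (66.5 CPM) and highest in DTR 3 (159.6 CPM), as for the members, and Cd274, which encodes PD-L1, gave most of it, with 49.6 CPM in Ctrl 1 and 138 CPM in DTR 3. Cd80 was also highest in DTR 3, at 5.99 CPM. Cd274 and Cd80 were named after their values had been seen.

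**Figure D3:**
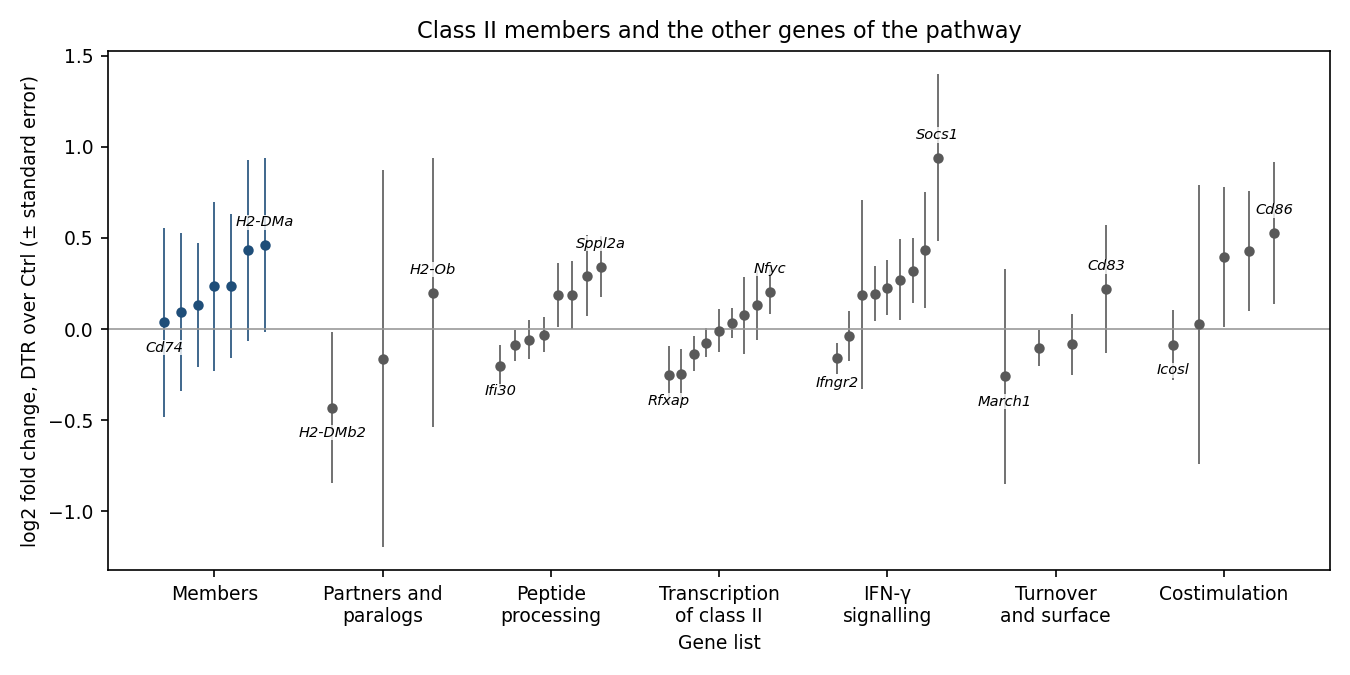
Log2 fold change, DTR over Ctrl, with its standard error for the 7 members (blue) and the 38 tested pathway genes (grey), grouped by list and sorted within each, with the lowest and highest gene of each list named. The members lie between 0.04 and 0.46 and the other genes between -0.43 (H2-DMb2) and 0.94 (Socs1), and 0 of them passed the test.

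Genes of other cell types were set beside the members because transcripts of leukocytes, and far more of melanocyte-lineage genes, were present after the sort. The IFN-γ response list, 10 genes that rise in many cell types exposed to this cytokine, had its lowest sum in Ctrl 1 and its highest in DTR 3, as the members did. Its sum was 713, 1507 and 1562 CPM in Ctrl and 1299, 1306 and 2590 CPM in DTR. Of its 8 tested genes 7 were lowest in Ctrl 1 and 8 had a log2 fold change above 0, with a median of 0.27 and 0 at an unadjusted p under 0.05. This direction rested on single libraries, as 3 of the 8 were above 0 without Ctrl 1 and 3 of the 8 without DTR 3, with a median of -0.02 in both fits. Cxcl9, a chemokine induced by IFN-γ, was the exception for Ctrl 1, with 38.6, 32.4 and 61.7 CPM in Ctrl and 29.1, 39.2 and 120 CPM in DTR. Gbp4 and Igtp of this list were at 0 counts in all 6 libraries. Of their exon bases, 0.814% and 8.01% are also annotated to other genes on the same strand. Whether the assignment of reads gave these zeros was not tested. The members amounted to 0.236 of the sum of this list in Ctrl 1 and to 0.252 to 0.446 of it in the other libraries. The part of IFN-γ exposure in the level of class II was not tested.

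Leukocyte markers moved with the members only in part. The pan-leukocyte sum was 157, 273 and 194 CPM in Ctrl and 175, 171 and 189 CPM in DTR, lowest in Ctrl 1 and highest in Ctrl 2. Of its 10 genes 6 were lowest in Ctrl 1, and Ptprc was at 16.3, 49.6 and 27.1 CPM in Ctrl and 34.6, 30.0 and 36.7 CPM in DTR. In this list 1 gene, Itgb2, an integrin chain of leukocytes, had an unadjusted p under 0.05, with a log2 fold change of -0.45, where 4.11% of all tested genes had such a p and were lower. With single Ctrl libraries left out the list had no stable direction, with 7 of 10 genes lower in DTR and a median of -0.34 without Ctrl 1 and 3 of 10 lower and a median of 0.21 without Ctrl 2. At an unadjusted p under 0.05 in edgeR there were 3 of its genes without Ctrl 1 (8.35% of all genes in that fit). Without Ctrl 3 there were 2 (6.09%). The members exceeded the pan-leukocyte sum 1.07-fold in Ctrl 1 and 1.87-fold to 3.89-fold elsewhere. Their part in the class II level was not tested.

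The sum of the 12 macrophage genes varied less between libraries than that of the members. It was 114, 165 and 119 CPM in Ctrl and 126, 122 and 117 CPM in DTR, and 5 of 11 tested were lowest in Ctrl 1. Single genes varied more, and Cx3cr1 ran from 2.20 CPM in Ctrl 1 to 7.49 CPM in DTR 3. Adgre1, which encodes F4/80, was at 4.16, 11.4 and 3.62 CPM in Ctrl and 7.58, 7.53 and 8.59 CPM in DTR. Mrc1, which encodes CD206, was lower in every DTR library (log2 fold change -0.57, adjusted p = 0.602, edgeR), as were 8.19% of all tested genes. It was the only gene of this list at an unadjusted p under 0.05, where 4.11% of all tested genes had such a p and were lower. Itgam was at 0 counts in all libraries, and 68.7% of its exon bases are also annotated to another gene on the same strand. Class II over the macrophage sum was 1.47 in Ctrl 1, 4.06 in Ctrl 2, 4.73 in Ctrl 3, 2.59 in DTR 1, 3.82 in DTR 2 and 6.29 in DTR 3. The share of macrophage RNA in the class II level was not tested.

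Dendritic cell genes were scarce, with a sum of 25.6, 25.4 and 32.4 CPM in Ctrl and 26.2, 31.8 and 33.7 CPM in DTR over 10 genes. Flt3, a receptor that marks this lineage, was at 2.37, 1.17 and 6.15 CPM in Ctrl and 2.44, 6.27 and 4.54 CPM in DTR, and it was lowest in Ctrl 2, where class II was high. Of the 9 tested genes, 3 were lowest in Ctrl 1 and 0 had an unadjusted p under 0.05. Clec9a, which marks cross-presenting dendritic cells and was picked after its values were seen, had 2 counts in Ctrl 1 and at most 57 in another library. B cell genes were scarce. The sum of the list was 3.83 to 11.8 CPM, to which Pax5 gave 3.09 to 6.03 CPM, whereas Ighm, the IgM constant region of the B lineage, which is not in the list, was at 1.80 CPM in Ctrl 1 and 8.11 to 17.3 CPM elsewhere. The sum of the 7 members was at least 38.2 times that of the B cell list in every library.

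T cell genes were lowest in Ctrl 1 as well. Their sum was 7.02, 43.2 and 21.3 CPM in Ctrl and 15.7, 14.0 and 18.6 CPM in DTR, and 6 of 8 were lowest in Ctrl 1. Cd3e, a chain of the T cell receptor complex, was at 0.979, 8.03 and 3.65 CPM in Ctrl and 1.69, 1.42 and 3.83 CPM in DTR. In DTR 3, where class II was highest, the sum of the list was below that of Ctrl 2 and Ctrl 3, although Cd3e was slightly above Ctrl 3. Cd3d was the only one at an unadjusted p under 0.05, with a log2 fold change of -1.23 and at most 43 counts in a library. Of all tested genes, 4.11% had such a p and were lower in DTR. Without Ctrl 1, 8 of 8 T cell genes were lower in DTR and 5 had an unadjusted p under 0.05, against 8.35% of all genes tested in that fit. Without Ctrl 2, in which T cell genes were highest, 3 of 8 were lower and 0 had such a p, so the direction depended on the library left out.

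Fibroblast genes did not follow the members. Their sum over 8 genes was 13620, 5213 and 5168 CPM in Ctrl and 10820, 5571 and 14040 CPM in DTR, highest in DTR 3 and, unlike class II, high in Ctrl 1. Without Ctrl 1, 8 of 8 were higher in DTR and 3 had an unadjusted p under 0.05, against 8.35% of all genes tested in that fit, and without DTR 3 these counts were 5 and 0. Pdgfra was at 125, 42.6 and 62.9 CPM in Ctrl and 96.6, 54.0 and 132 CPM in DTR. The melanoma sum ran from 15230 to 18970 CPM, above the fibroblast sum in every library. The part of tumor cells in the class II level was not tested. Sox10 was the only gene of the melanoma list under an unadjusted p of 0.05 (log2 fold change -0.28). Of all tested genes, 4.11% had such a p and were lower in DTR. Endothelial genes summed to 11.6 to 78.8 CPM with the highest value in DTR 3, to which Tek gave 62.8 CPM (log2 fold change 1.84, unadjusted p = 0.0462 in edgeR, and 0.42 on the log2 scale without DTR 3), and Pecam1, which encodes CD31, was at 2.61 to 8.02 CPM. Genes that mark mesothelium and the antigen-presenting fibroblasts described in pancreatic tumors were nearly absent. Msln was at 0 counts in all 6 libraries, and the sum of these 7 genes was 1.09 to 4.45 CPM, of which 2 genes, Slpi and Krt19, could be tested.

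**Figure D4:**
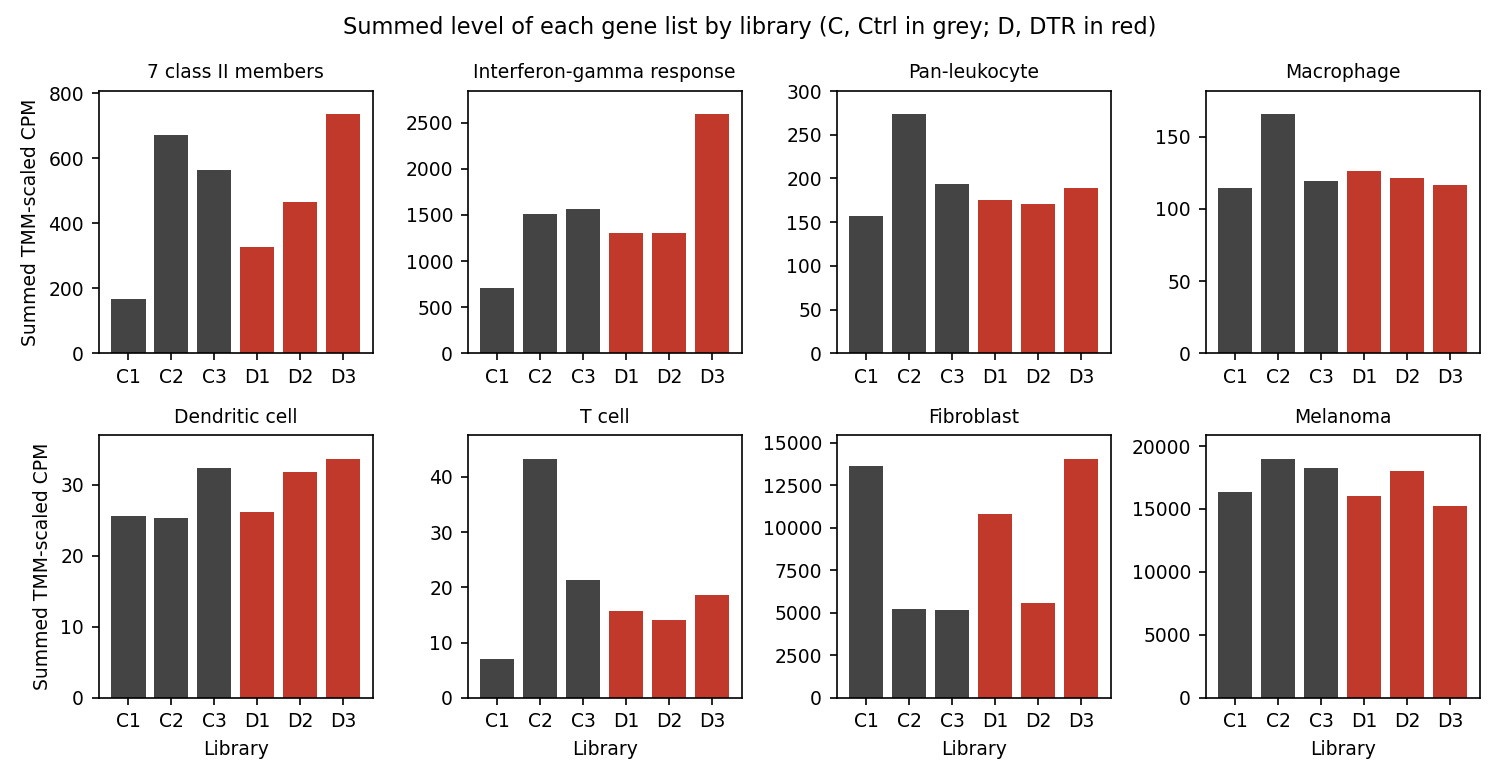
Summed TMM-scaled CPM of the 7 members and of 7 other gene lists in each library, with Ctrl (C1 to C3) in grey and DTR (D1 to D3) in red and a separate axis from 0 for each panel. The members and the IFN-γ response list are lowest in C1 (168 and 713 CPM) and highest in D3 (734 and 2590 CPM), whereas fibroblast genes are high in both of these libraries (13620 and 14040 CPM).

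The genes whose pattern over the 6 libraries was most like that of the class II chains and Cd74 were listed as a description. The mean log2 pattern of H2-Aa, H2-Ab1, H2-Eb1 and Cd74 was compared with 12972 other genes, of which 282 changed with a slope between 0.5 and 2 and 67 of these had a Pearson r of at least 0.9. Ciita had an r of 0.979 with the pattern, H2-DMb1 one of 0.966 and H2-DMa one of 0.947, none of which had entered it. The 10 genes with the highest r were Clec12a (0.994), Dock8 (0.981), Tap2 (0.980), Gbp8 (0.977), Nlrc5 (0.977), Psmb10 (0.977), Il18bp (0.974), Gm17334 (0.973), Psmb9 (0.972) and Ighm (0.971). Each r rests on 6 points that share library, depth and scaling.

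Among these 10, Tap2, Psmb9 and Psmb10 encode parts of the transporter and the immunoproteasome that supply peptides to class I, and Nlrc5 encodes the coactivator of class I genes, a relative of CIITA. Tap2 was at 44.3, 92.3 and 79.9 CPM in Ctrl and 65.0, 66.4 and 103 CPM in DTR. Nlrc5 was at 97.4, 189 and 174 CPM in Ctrl and 154, 158 and 226 CPM in DTR, the lowest and the highest library again being Ctrl 1 and DTR 3. Its slope on the class II pattern was 0.539, so that it varied less than the members did. Gbp8 encodes a guanylate-binding GTPase and Il18bp a secreted inhibitor of IL-18. Gbp8 was at 4.33, 19.5 and 18.3 CPM in Ctrl and 12.1, 16.9 and 31.3 CPM in DTR.

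The remaining genes of the 10 are leukocyte genes or poorly characterised. Clec12a, a myeloid C-type lectin, was at 1.31, 4.90 and 3.90 CPM in Ctrl and 2.7, 3.89 and 5.64 CPM in DTR. Dock8, a guanine nucleotide exchange factor of leukocytes, was at 19.3, 40.1 and 33.5 CPM in Ctrl and 25.5, 31.1 and 36.3 CPM in DTR, the highest value being in Ctrl 2. Ighm, the constant region of IgM, was at 1.80, 13.3 and 12.9 CPM in Ctrl and 8.11, 11.4 and 17.3 CPM in DTR. Ighm had a slope of 1.40 on the class II pattern. Of the 10 genes, 0 passed the test between DTR and Ctrl, and their log2 fold changes ran from -0.00 for Dock8 to 0.51 for Gbp8.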

How the data were processed

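RNA-seq counts of 6 libraries were used, 3 Ctrl and 3 DTR, grouped by the sample labels. Per the labels and methods, the authors trimmed reads (cutadapt 3.4), aligned them to GRCm38 (STAR 2.7.3a) and deposited raw read counts per gene (featureCounts 2.0.1, stranded). The deposited table also holds normalized values (score), which are counts over the authors' DESeq2 size factors, and the authors' fold changes and p-values. None of these was used. The table lists 53801 genes, 27987 without a name, of which GENCODE M21 named 27927. Coordinates and lengths also come from GENCODE M21.

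Genes were kept by filterByExpr (minimum count 10, minimum total 15), counts were scaled by TMM and groups compared in edgeR 4.0.16 (R 4.3.3) by its quasi-likelihood test, two-sided, with Benjamini-Hochberg correction over 15133 genes at 0.05. The fit had 4 residual degrees of freedom. Permutation tests used log2(CPM + 0.5), and ratios log2 of counts + 0.5. All 7 members were named, with the extremes of each pathway list, the defining and extreme markers, Adam12, Pdgfra, Pdpn and the 10 most similar genes (mean CPM at least 1, slope 0.5 to 2). Members, lists and tests were chosen with earlier results of these data known. Steps were tested on simulated data. Some genes of the lists are not reported here.

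Alternatives were DESeq2-type size factors, library size alone, at least 1 count in any library, at least 10 counts in every library, DESeq2 1.42.0, the replicate number as a block, a loess offset (span 0.5) on genomic span, a pseudocount of 3 for ratios, and each library left out. Per-kilobase levels with all exons were added after seeing the data. Libraries held 22339635 to 34271929 counts.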

Additional observations from a re-analysis of the deposited data

How the results depend on the processing

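With DESeq2-type size factors, library size alone, both count filters, DESeq2, the replicate block and the genomic span offset, the log2 fold changes of all 7 members kept their direction, and no member had an adjusted p under 0.05 (0.654 to 0.9997 over all alternatives, edgeR or DESeq2). With each library left out, they ran from -0.17 to 0.58 for H2-Aa, -0.27 to 0.53 for H2-Ab1, -0.12 to 0.58 for H2-Eb1, -0.38 to 0.39 for Cd74, -0.04 to 0.80 for Ciita, -0.10 to 0.72 for H2-DMa and -0.18 to 0.38 for H2-DMb1. Values below 0 arose without Ctrl replicate 1 (-0.17 for H2-Aa, -0.27 for H2-Ab1, -0.12 for H2-Eb1, -0.38 for Cd74, -0.18 for H2-DMb1) and without DTR replicate 3 (-0.10 for H2-Aa, -0.26 for H2-Ab1, -0.04 for H2-Eb1, -0.039 for Ciita, -0.34 for Cd74, -0.10 for H2-DMa, -0.08 for H2-DMb1), and the cause was not tested. The median of the members ran from -0.17 to 0.58. The log2 difference of the Cd74 to H2-Ab1 ratio turned to 0.15 without Ctrl replicate 3 and 0.14 without DTR replicate 1. Genes past the threshold numbered 31 in DESeq2 and 0 to 2 with a library left out (2 without Ctrl replicate 1). Pathway genes at an unadjusted p under 0.05 numbered 2 of 39 with at least 1 count in any library (6.76% of all genes in that fit), 1 of 39 in DESeq2 (4.89%), 1 of 38 with the span offset (9.64%), 4 of 38 with the replicate block (8.4%) and 0 to 4 with a library left out (1 without Ctrl replicate 2, 4 without DTR replicate 1 with 10.2% of all genes, 3 without DTR replicate 2 with 7.59%). Same-numbered libraries had deviations from their group means that correlated at 0.146, 0.162 and -0.065. They were not treated as pairs in the main fit, because a Ctrl and a DTR library come from different mice. With the replicate block the median of the members was 0.35 and the lowest adjusted p of a member 0.670 (edgeR). Levels per kilobase fell for all 7 members when all exons were used, a choice made after seeing the data. They were then 16.1 for H2-Aa, 20.1 for H2-Ab1, 22.6 for H2-Eb1 and 166 for Cd74. Ciita was at 2.57, H2-DMa at 3.63 and H2-DMb1 at 9.72.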
